A study of Mus musculus with 12 samples.

Results

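Heat shock proteins and DnaJ co-chaperones were followed in 12 mouse heart samples measured on single-colour (Cy3) Agilent expression arrays, with 1 array per sample. The members were chosen by name alone: every gene whose probe carries an Hspa, Hspb, Hspd, Hspe, Hsph, Hsp90, Dnaja, Dnajb or Dnajc symbol with a gene number, pseudogenes left out. This gave 72 of 36982 genes on the array, read by 155 probes, and 65 of the 72 were bright enough to be tested. The study crossed genotype with myocardial infarction (MI) in 4 groups of 3 samples. WT were wild-type hearts and WT+MI wild-type hearts after infarction, both of strain C57/BL6. The titles of WT+MI 2 and 3 begin differently from the title of WT+MI 1 and do not name the genotype, so both were placed by their subgroup and strain labels. TG were hearts of mice transgenic for CCRR, a long non-coding RNA, and TG+MI were transgenic hearts after infarction; no strain is given for either. Several facts are not stated in the labels: the promoter of the transgene, how long after infarction hearts were taken, which part of the heart was used, and whether each sample was its own animal. The p-values therefore cover the spread among these samples, which may be technical. No array spot is named CCRR, so the transgene itself was not analysed here.

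Chaperones hold other proteins in a soluble, foldable state. HSP70 proteins bind and release unfolded stretches in a cycle driven by ATP, which J-domain (DnaJ) proteins start and exchange factors of the HSP110 kind reset. HSP90 proteins complete the folding of kinases and receptors, small heat shock proteins hold aggregating proteins, and the HSP60 and HSP10 chaperonin folds proteins inside mitochondria. In heart muscle the inducible genes are switched on by heat shock factor 1 after ischaemia and other protein-damaging stress, while related genes of the endoplasmic reticulum answer to the unfolded protein response.

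The stretches before the gene start are shown for 3 members that hold a heat shock motif and whose RNA rose after infarction in both genotypes. A pair of endoplasmic reticulum members that hold the stress element of that compartment is shown as well. The first 3 were picked by motif and rise together. Dnaja1 met both terms and is not shown, while Dnajb1 and Hspa4 rose in both genotypes without a heat shock motif in the 250 bases. Each line gives the 250 bases before the gene's start, 5′ to 3′ on the gene's own strand, from RefSeq on GRCm38.p6. Hspa1a lies at chr17:34972157-34972406 on the minus strand, Hspa1b at chr17:34959239-34959488 on the minus strand and Hspb1 at chr5:135887669-135887918 on the plus strand. Hspa5 lies at chr2:34771840-34772089 on the plus strand and Hsp90b1 at chr10:86705445-86705694 on the minus strand. Capitals mark GAANNTTC in the first 3 sequences, the core of a heat shock element, and CCAAT and CCACG 9 bases apart in the last 2, the endoplasmic reticulum stress element, read on either strand.
Hspa1a: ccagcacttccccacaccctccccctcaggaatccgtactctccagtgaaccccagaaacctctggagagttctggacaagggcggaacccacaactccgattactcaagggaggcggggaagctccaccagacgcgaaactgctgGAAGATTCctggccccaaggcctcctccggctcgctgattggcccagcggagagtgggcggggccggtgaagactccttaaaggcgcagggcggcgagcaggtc
Hspa1b: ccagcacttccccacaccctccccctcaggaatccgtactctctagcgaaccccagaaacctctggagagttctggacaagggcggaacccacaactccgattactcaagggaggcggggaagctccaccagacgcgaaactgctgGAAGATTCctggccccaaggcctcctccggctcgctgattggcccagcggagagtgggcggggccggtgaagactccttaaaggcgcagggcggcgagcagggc
Hspb1: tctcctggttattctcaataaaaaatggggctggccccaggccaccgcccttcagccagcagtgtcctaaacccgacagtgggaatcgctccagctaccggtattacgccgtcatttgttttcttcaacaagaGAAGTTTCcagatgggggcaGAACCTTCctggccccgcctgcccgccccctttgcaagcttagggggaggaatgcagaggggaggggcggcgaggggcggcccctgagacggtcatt
Hspa5: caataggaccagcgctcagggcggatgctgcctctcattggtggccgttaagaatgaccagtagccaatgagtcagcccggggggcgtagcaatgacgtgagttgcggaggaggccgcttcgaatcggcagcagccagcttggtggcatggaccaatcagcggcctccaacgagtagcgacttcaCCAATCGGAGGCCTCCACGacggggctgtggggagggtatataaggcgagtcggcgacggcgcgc
Hsp90b1: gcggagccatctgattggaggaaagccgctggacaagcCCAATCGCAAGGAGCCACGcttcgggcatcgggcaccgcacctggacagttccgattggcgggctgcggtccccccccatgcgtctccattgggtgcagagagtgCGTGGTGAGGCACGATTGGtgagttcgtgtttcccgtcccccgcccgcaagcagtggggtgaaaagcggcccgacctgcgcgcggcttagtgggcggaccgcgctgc
The Hspa1a and Hspa1b windows were identical at 247 of 250 bases (98.8%), and each held a single GAANNTTC match. Their array probes differ in sequence: the longest stretch the 60-base probes share is 5 bases. Neither probe was compared with the RNA of the other gene. Whether the 2 genes are read separately was therefore not tested.

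Both strands were searched for GAANNTTC and TTCNNGAA in the 250 bases before the start. Either motif was found in 12.8% of all 32851 RefSeq windows of that length. Members can have several starts: 16 of their 75 windows held a match (21.3%). Windows of Dnajb6 overlap at the same matches, as do those of Hsph1, and a window of Hspd1 with that of Hspe1. The 16 windows are therefore not all separate sites. How often all windows share sites was not counted. Counted by gene over any of its windows, 14 of the 58 members with a window held a match. These were 4 of 12 members higher in WT+MI than in WT, 2 of 13 lower and 8 of 28 that did not pass. The share by gene over all genes was not counted, and several windows give a gene more chances of a match. The counts by gene are therefore no result about the members. A longer match of 3 alternating units (GAANNTTC followed by NNGAA, or TTCNNGAA followed by NNTTC), which was added after the data were seen, occurred in 0.466% of all windows. Among members it was found in Hspd1 and Hspe1, the genes of the mitochondrial chaperonin, and in Dnajb6. Hspd1 and Hspe1 face away from each other with 215 bases between their starts, so both windows read the same site. That site is shown because neither gene rose after infarction, and its capitals mark 18 bases covered by overlapping matches at chr1:55088053-55088082, plus strand.
Hspe1: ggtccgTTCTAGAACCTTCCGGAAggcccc
The element of CCAAT and CCACG 9 bases apart, also added later, occurred in 0.113% of all windows and among members in Hspa5, Hsp90b1 and Dnajc3. A match is a run of letters in these windows and is no record of a bound factor.

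Levels are log2 of the processed Cy3 intensity relative to the 75th percentile of the same array, so 0 is the brightness of that percentile. They serve to compare arrays for a probe, not genes with each other. Differences are log2 differences of group means with the standard error (SE) of limma's fit over all 12 arrays. A gene passed where its p-value, adjusted by Benjamini-Hochberg over all 19761 genes tested, was under 0.05. All 8 cardiomyocyte markers, such as Tnnt2 and Myh6, exceeded background clearly on each of the 12 arrays, and their summed log2 level was 11 to 11.4 in WT, 10.6 to 11.1 in WT+MI, 10.6 to 10.9 in TG and 10.6 to 11.1 in TG+MI. In WT+MI against WT 0 of the 8 rose and 3 fell, Pln (-1.38 ± 0.23), Ryr2 (-0.62 ± 0.19) and Tnni3 (-0.58 ± 0.19). All WT and WT+MI arrays lay on slide 1 together with TG 1 and TG 2, while TG 3 and the TG+MI arrays lay on slide 2. The infarcted groups therefore sat on different slides, and slide and genotype cannot be told apart between them. Summed levels of other cell types moved with the groups. Each is a sum of linear signal, so it follows its brightest markers. Csf3r, the brightest neutrophil marker in WT, was 6.47 to 6.71 in WT and 6.45 to 6.81 in WT+MI, while 5 of the 6 neutrophil markers rose. The neutrophil sum was 6.60 to 6.77 in WT, 8.05 to 8.59 in WT+MI, 6.34 to 6.44 in TG and 7.06 to 7.19 in TG+MI, with 4 to 5 of the 6 markers above background in WT, 4 in TG and all 6 after infarction. The fibroblast sum was 7.51 to 7.70 in WT, 6.87 to 7.25 in WT+MI, 7.96 to 8.37 in TG and 7.25 to 7.31 in TG+MI. The smooth muscle sum was highest in TG, at 5.47 to 6.54 against 5.03 to 5.33 in WT. The endothelial sum was 5.51 to 5.6 in WT and 4.93 to 5.24 in the other groups. Of the 6 endothelial markers 3 were lower in WT+MI than in WT and 0 higher. Erythroid and adipocyte genes differed within groups: Alas2 was 6.72, 2.60 and 3.72 in WT, and Adipoq 2.81, -2.16 and -1.67 in TG. Atrial genes set single arrays apart. The level of Myl4, an atrial myosin light chain, was 0.87, 0.81 and 0.59 in WT, 6.61, 0.14 and 0.31 in WT+MI, 8.53, 6.35 and 8.12 in TG and 1.53, 4.71 and 0.79 in TG+MI. It was thus high in WT+MI 1, in TG+MI 2 and on all TG arrays. Sln, another atrial gene, had its highest levels on the same arrays (5.57 in WT+MI 1, 3.70 in TG+MI 2 and 5.06 to 7.34 in TG). Without WT+MI 1 the count of members called in WT+MI against WT was 28 and not 32. It was also 28 without WT 3, where Myl4 was not high. Without TG+MI 2 the count in TG+MI against TG was 1 and not 9, and it was also 1 without TG 1. The count of all genes called there was 1743 with all arrays, 679 without TG+MI 2 and 746 without TG 1. The TG group cannot be had without arrays of high Myl4. The part of these cell types in the member values was not tested. In whole tissue, fewer cells of a type and less RNA per cell cannot be told apart.

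Infarction in wild-type hearts was measured by WT+MI against WT. The inducible chaperones rose steeply: Hspa1b and Hspa1a, which encode the stress-inducible cytosolic HSP70, were 42.4-fold and 35.9-fold higher, Hsp90aa1, the inducible cytosolic HSP90, 3.73-fold, and Dnajb1, the main HSP40 partner of HSP70, 2.55-fold. Without WT+MI 3, the lowest WT+MI array for both, the folds of Hspa1b and Hspa1a were 90.3 and 81.8. Dnajc28, a J-domain gene, was 3.65-fold lower and Hspa12a, a distant HSP70 relative, 4.45-fold lower. Lower calls were 3 of 4 type A, 1 of 10 type B and 9 of 24 type C J-domain genes, beside 29.6% of all genes tested. In all, 16 of 65 members were higher and 16 lower, which is 49.2% of members against 48.1% of all genes tested. The higher share was 24.6% against 18.5% of all genes, and the lower share 24.6% against 29.6%. The class counts below stand beside these shares of all genes. The groups did not overlap for 43 members (66.2%), against 63.8% of all genes. The median difference was -0.11 over the members and -0.15 over all genes tested. These shares lie near the background and are no result about the members as a class. Of the 32 calls, 20 held under all 22 alternative settings tried, those of Hspa1a, Hspa1b, Hspa4, Hspb1, Hspb2, Dnajb1, Dnajc2 and Hspa12a among them.

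**Figure D1:**
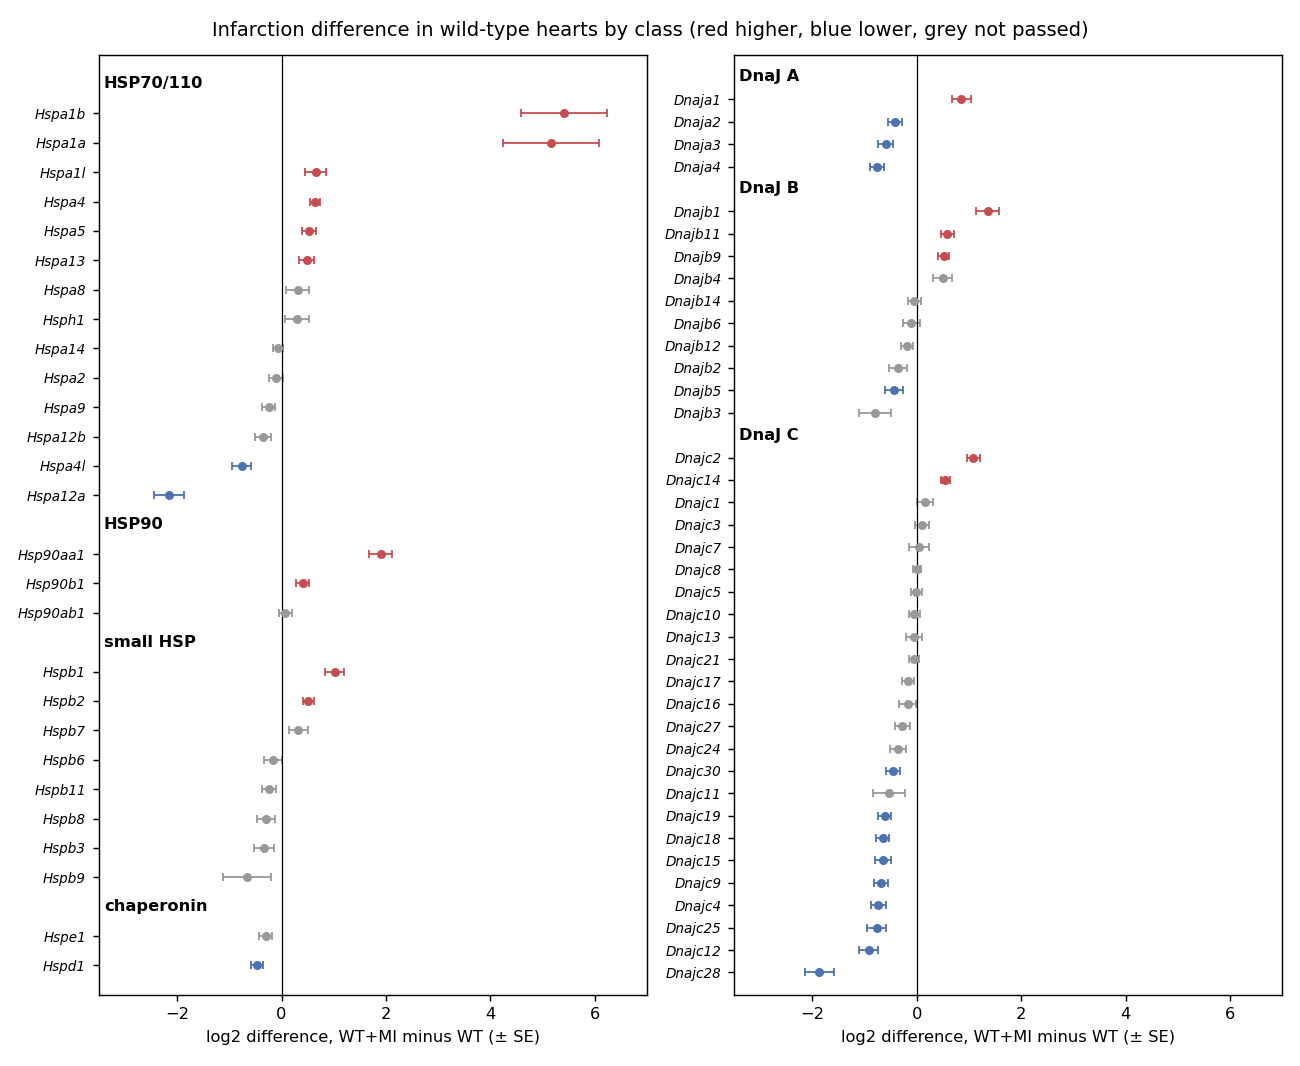
Log2 difference of WT+MI from WT for the 65 tested members by class, with the SE of the fit as bars; 3 arrays per group. Hspa1b (5.41) and Hspa1a (5.17) lie far to the right of all other members. To the left of 0 as passed lie 9 of 24 DnaJ C genes, where 29.6% of all genes tested were lower.

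Among the HSP70 and HSP110 genes, 6 of 14 rose and 2 fell. The Hspa1a level was -1.02, -0.77 and -0.52 in WT, 6.11, 5.06 and 2.02 in WT+MI, 0.39, 0.19 and -0.31 in TG and 2.70, 2.79 and 5.13 in TG+MI. Every infarcted heart was above every uninfarcted heart, and WT+MI 3 was the lowest infarcted array and TG+MI 3 the highest transgenic one. WT+MI exceeded WT by 5.17 ± 0.92 (limma adjusted p = 0.00147). The Hspa1b level was -2.41, -2.45 and -2.41 in WT, 4.55, 3.60 and 0.80 in WT+MI, -1.14, -1.71 and -2.09 in TG and 1.41, 1.53 and 3.40 in TG+MI. Its order of arrays was close to that of Hspa1a, again with WT+MI 3 low, and WT+MI exceeded WT by 5.41 ± 0.82 (limma adjusted p = 0.000697). The probes of both genes lie on chromosome 17 of the mm9 build, the Hspa1a probe at 35106766 to 35106825 and the Hspa1b probe at 35093374 to 35093405, both on the minus strand. The SD of Hspa1a was 2.12 within WT+MI against 0.25 within WT, so the size of the rise in a given heart is poorly fixed by 3 arrays.

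The other HSP70 genes moved far less. Hspa1l, a member best known from testis, was higher by 0.66 ± 0.20, while the testis marker list had at most 2 of its 5 markers above background on any array. Hspa5, the endoplasmic reticulum HSP70 known as BiP, rose by 0.53 ± 0.13 and Hspa13, a microsomal HSP70, by 0.48 ± 0.14. Hspa8, the constitutive cytosolic HSP70, differed by 0.31 ± 0.21 (limma adjusted p = 0.256), and its level of 5.53, 6.18 and 5.73 in WT overlapped the 6.28, 6.23 and 5.84 of WT+MI. Hspa9, the mitochondrial HSP70, differed by -0.25 ± 0.13, Hspa2 by -0.11 ± 0.13, Hspa14, which acts at the ribosome, by -0.07 ± 0.10 and Hspa12b, an endothelial relative of Hspa12a, by -0.36 ± 0.15, and none of these passed. The Hspa12a level was 2.56, 2.43 and 2.58 in WT, -0.11, 0.46 and 0.75 in WT+MI, 2.28, 2.29 and 2.27 in TG and 1.87, 0.95 and 0.61 in TG+MI. All infarcted hearts were below all uninfarcted hearts, and WT+MI was lower by -2.16 ± 0.29 (limma adjusted p = 0.00042).

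The HSP110-type exchange factors split. Hspa4 rose by 0.64 ± 0.10 and its relative Hspa4l fell, with a difference of -0.76 ± 0.18, while Hsph1, the HSP110 of the heat shock response, differed by 0.30 ± 0.23 (limma adjusted p = 0.319). The Hspa4 level was 4.54, 4.62 and 4.54 in WT, 5.28, 5.25 and 5.11 in WT+MI, 4.32, 4.54 and 4.50 in TG and 4.97, 5.14 and 5.01 in TG+MI. Both infarcted groups lay above both uninfarcted groups, with tighter replicates than for Hspa1a. For Hsph1 the level was 2.15, 2.45 and 2.32 in WT and 2.99, 2.35 and 2.47 in WT+MI, so a single infarcted heart stood above the rest and the groups overlapped.

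Of the 3 HSP90 genes, 2 rose. The Hsp90aa1 level was 3.38, 3.34 and 3.26 in WT, 5.58, 5.37 and 4.73 in WT+MI, 3.42, 3.69 and 3.1 in TG and 4.07, 4.39 and 4.61 in TG+MI. WT+MI stood above every other array, TG+MI lay between, and the uninfarcted groups overlapped. The difference of WT+MI from WT was 1.90 ± 0.23 (limma adjusted p = 0.000247), and the second probe that could be tested gave 1.53 ± 0.18. With the mean over all its probes, 1 of them too dim to be tested, Hsp90aa1 differed by 0.66 (adjusted p = 0.196). Hsp90b1, the endoplasmic reticulum HSP90 known as GRP94, rose by 0.40 ± 0.12. It differed by 0.24 in the authors' deposited table (adjusted p = 0.112 in a limma fit of those values) and by 0.14 with normexp background correction and quantile normalization together (adjusted p = 0.385), so that call was lost in both. Hsp90ab1, the constitutive cytosolic HSP90, differed by 0.07 ± 0.12.

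Of the 8 tested genes with an Hspb symbol, grouped by name alone as the small heat shock proteins, 2 rose and 0 fell. Hspb1, the broadly inducible small heat shock protein HSP27, had levels of 7.05, 7.34 and 7.05 in WT, 8.27, 8.42 and 7.82 in WT+MI, 6.97, 7.35 and 7.11 in TG and 7.61, 7.75 and 8.09 in TG+MI. All infarcted hearts were above all uninfarcted ones, and WT+MI exceeded WT by 1.02 ± 0.19. Hspb2, a muscle small heat shock protein, rose by 0.51 ± 0.11, from 5.09, 5.18 and 5.12 to 5.70, 5.69 and 5.55. The other muscle members did not pass: Hspb7, found mainly in heart and muscle, differed by 0.32 ± 0.19, Hspb6 by -0.16 ± 0.16, Hspb8, which works with the exchange factor Bag3, by -0.30 ± 0.17 and Hspb3 by -0.34 ± 0.19. In the mitochondrial chaperonin, Hspd1 (HSP60) fell, with a difference of -0.46 ± 0.12, and Hspe1 (HSP10) differed by -0.30 ± 0.13 (limma adjusted p = 0.0774). The Hspd1 level was 6.0, 6.19 and 5.92 in WT and 5.43, 5.61 and 5.69 in WT+MI, with all infarcted hearts lower.

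**Figure D2:**
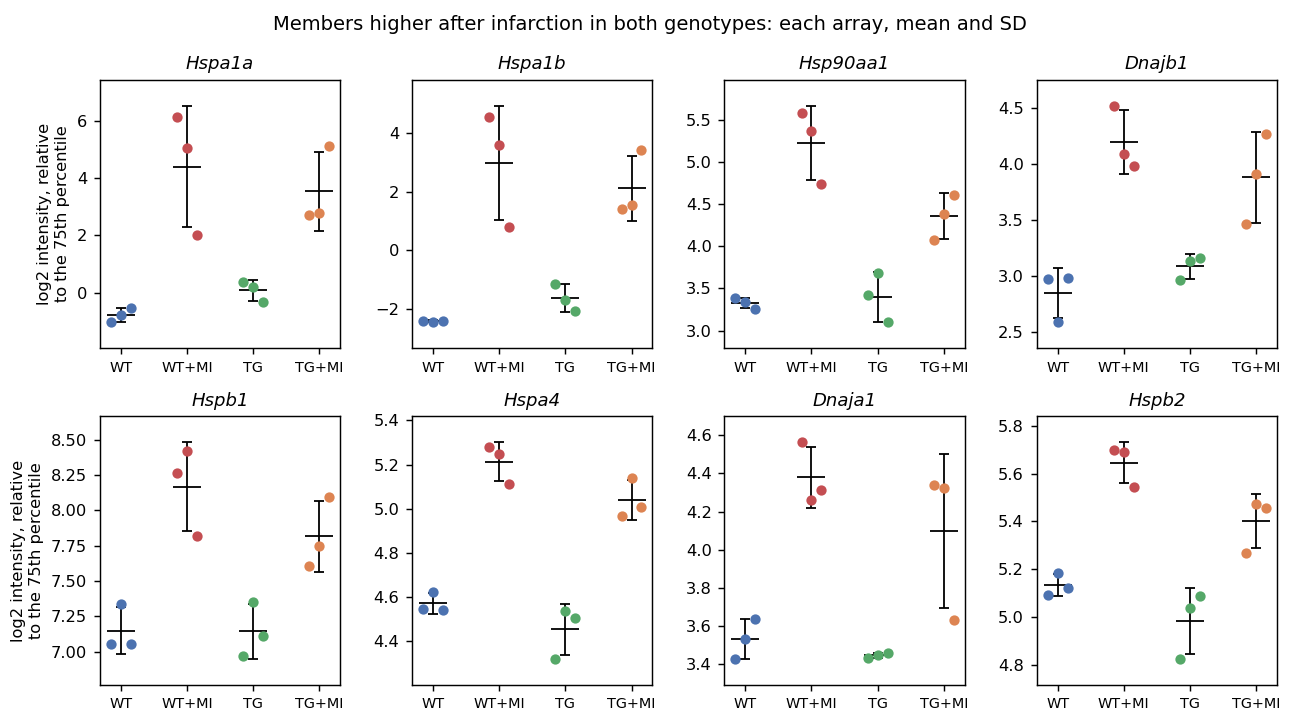
Log2 level on each array for the 8 members higher after infarction in both genotypes, with the group mean and SD as bars; the vertical scale differs between panels. WT+MI 3, the right point of its group, is the lowest of its group for Hspa1a (2.02), and TG+MI 3 the highest of its group (5.13).

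Among the J-domain genes of types A and B, 4 of 14 rose and 4 fell. Dnajb1 had levels of 2.97, 2.59 and 2.98 in WT, 4.52, 4.09 and 3.98 in WT+MI, 2.96, 3.14 and 3.16 in TG and 3.46, 3.91 and 4.27 in TG+MI. The infarcted hearts were all above the uninfarcted ones, and WT+MI exceeded WT by 1.35 ± 0.21 (limma adjusted p = 0.000807). Dnaja1, a cytosolic type A partner of HSP70, rose by 0.85 ± 0.18 (0.32 with the mean of its probes, adjusted p = 0.178), while its relatives Dnaja2 and Dnaja4 fell, with differences of -0.41 ± 0.13 and -0.77 ± 0.13. The mitochondrial Dnaja3 fell too (-0.60 ± 0.14), as did Dnajb5 (-0.44 ± 0.16). In the endoplasmic reticulum, Dnajb11 and Dnajb9, partners of Hspa5, rose by 0.58 ± 0.13 and 0.51 ± 0.11. Dnajb2 (-0.37 ± 0.17), Dnajb4 (0.49 ± 0.19) and the anti-aggregation gene Dnajb6 (-0.11 ± 0.16) did not pass.

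The type C genes, which share the J domain alone, had 2 of 24 higher and 9 lower, beside 18.5% higher and 29.6% lower among all genes tested. Dnajc2, a partner of HSP70 at the ribosome, rose by 1.08 ± 0.12, and Dnajc14, a protein of the endoplasmic reticulum membrane, by 0.54 ± 0.09. The Dnajc28 level was 1.61, 1.66 and 1.46 in WT, -1.0, -0.17 and 0.29 in WT+MI, 0.91, 1.07 and 1.39 in TG and 1.0, 0.53 and 0.62 in TG+MI. The WT+MI arrays lay below all others, with a difference from WT of -1.87 ± 0.28 (limma adjusted p = 0.000637). Dnajc12, a partner of the aromatic amino acid hydroxylases, fell from 1.54, 1.47 and 1.59 to 0.22, 0.68 and 0.94, a difference of -0.92 ± 0.18. Members of the mitochondrial import motor fell as well: Dnajc15 differed by -0.66 ± 0.15 and Dnajc19 by -0.61 ± 0.13. Dnajc25 (-0.77 ± 0.19), Dnajc4 (-0.74 ± 0.14), the histone co-chaperone Dnajc9 (-0.68 ± 0.14), Dnajc18 (-0.65 ± 0.12) and the mitochondrial Dnajc30 (-0.46 ± 0.13) completed the 9. Dnajc3, an inhibitor of the kinase PERK in the endoplasmic reticulum, differed by 0.10 ± 0.13, and Dnajc5, the synaptic vesicle protein CSP-alpha, by -0.01 ± 0.11. The 7 members not tested, Dnajb7, Dnajb8, Dnajb13, Dnajc5b, Dnajc5g, Dnajc6 and Dnajc22, were above background on at most 1 array of any group.

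**Figure D3:**
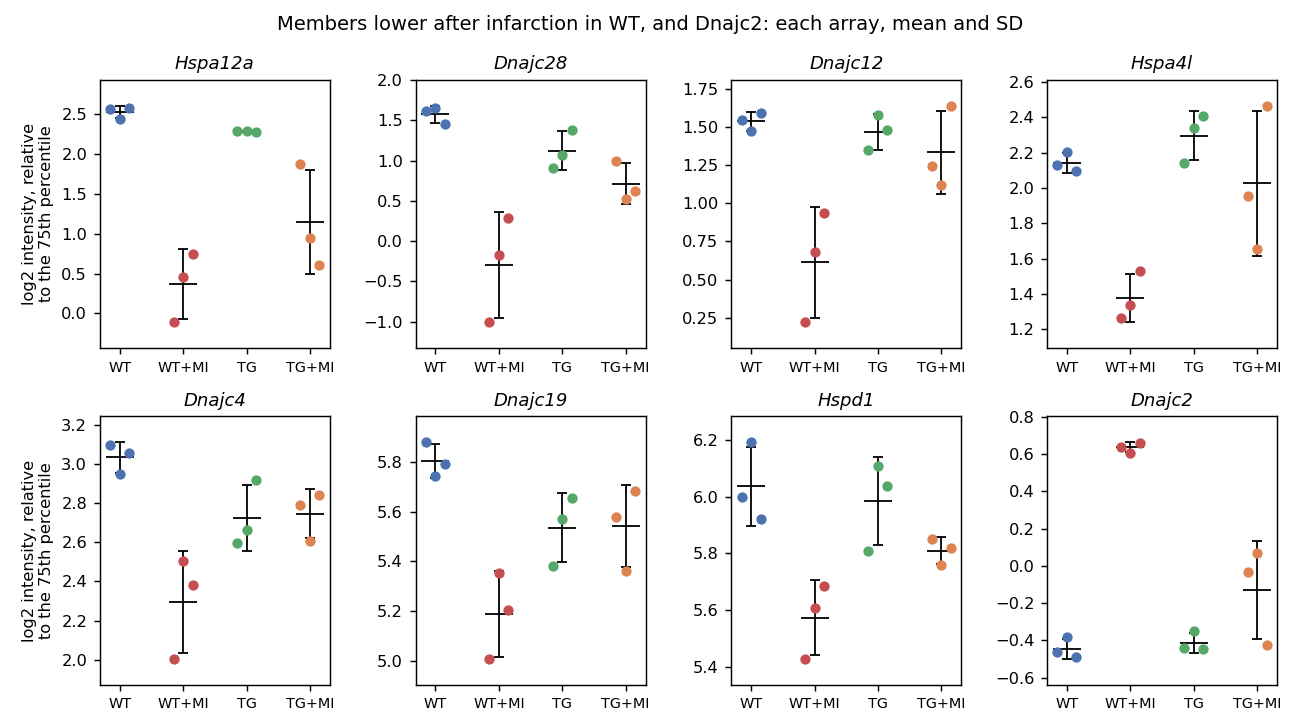
Log2 level on each array for 7 members lower after infarction in wild-type hearts and for Dnajc2, with the group mean and SD as bars; the vertical scale differs between panels. Dnajc28 lies lowest in WT+MI (-1.0 to 0.29), and Dnajc2 is higher in WT+MI (0.61 to 0.66) than in any other group.

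Genes read by several probes did not always agree among them. Of the 72 members, 44 had more than 1 probe. The gene value is that of its brightest probe, and 3 members had probes that passed in opposite directions in WT+MI against WT. Dnajb4 had 6 probes from -1.32 ± 0.34 to 2.68 ± 0.63, of which 3 were higher and 2 lower, and the probe used for the gene, at 0.49 ± 0.19, did not pass. Both lower Dnajb4 probes, on chromosome 3 of mm9 at 151872039 to 151872098 and at 151871457 to 151871515, are annotated to the same Ensembl transcript, which differs from that of the highest probe. For Hspa4l, 2 probes fell (-0.76 ± 0.18 and -0.42 ± 0.12) and another was higher, by 0.52 ± 0.16. For Dnajc18 the probe used gave -0.65 and the other 0.50 ± 0.11. All 4 Hspa4 probes were higher, from 0.52 ± 0.11 to 1.68 ± 0.22. For Dnajc5, where the probe used was flat at -0.01, the other was higher by 0.94 ± 0.19, and 1 of 5 Dnajb6 probes was higher (0.76 ± 0.13). Other members that did not pass also had a probe that did. The second Hspb7 probe was higher by 0.60 ± 0.17 here and by 0.80 ± 0.17 in TG+MI against TG, and a Dnajc1 probe was higher by 0.97 ± 0.31. In Dnajc16, 2 probes were lower (-0.50 ± 0.15 and -0.39 ± 0.12), and in Dnajc11, a gene of mitochondrial membranes, 1 was lower (-0.79 ± 0.19).

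**Figure D4:**
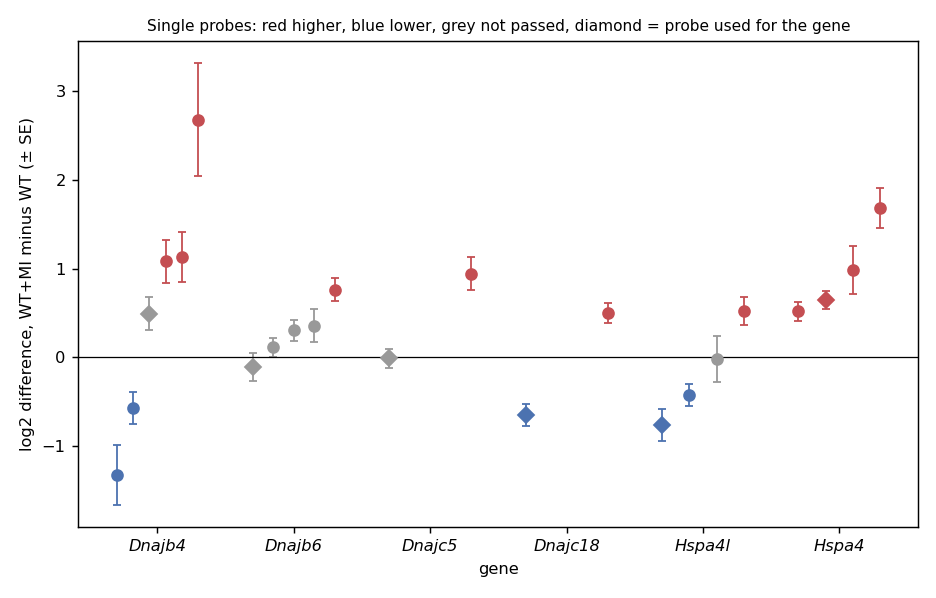
Log2 difference of WT+MI from WT for every tested probe of 6 members, with the SE as bars; diamonds are the probes used for the gene. The Dnajb4 probes run from -1.32 to 2.68 on both sides of 0, while the 4 Hspa4 probes lie above it.

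Genes that work with the members were counted from lists of partners. Of 5 heat shock factors and binding proteins, 0 rose and 2 fell: Hsf4 (-0.67 ± 0.23) and Hsbp1, which binds heat shock factor 1 (-0.45 ± 0.11), while Hsf1 itself differed by -0.31 ± 0.12 (limma adjusted p = 0.0512). Of 13 exchange factors and partners of HSP70, 1 rose and 3 fell, with Hyou1, an exchange factor of the endoplasmic reticulum, higher by 1.46 ± 0.21 and Bag6 (-0.46 ± 0.13), Sil1 (-0.31 ± 0.11) and the ubiquitin ligase gene Stub1 (-0.31 ± 0.11) lower. Of 16 HSP90 co-chaperones, 3 rose and 5 fell. The glucocorticoid-induced Fkbp5 was higher by 2.34 ± 0.38, Ptges3, the co-chaperone p23, by 0.73 ± 0.10 and Unc45a by 0.40 ± 0.13. Fkbp4 (-0.97 ± 0.19), the myosin chaperone Unc45b (-0.70 ± 0.15) and Aarsd1 (-0.50 ± 0.12) were lower. Cryab, the small heat shock protein alpha-B-crystallin of muscle, rose by 0.57 ± 0.16, and Hspbap1, which binds Hspb1, by 1.39 ± 0.44.

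Further lists were grouped by compartment, and their counts stand beside 18.5% higher and 29.6% lower among all genes tested. Of 9 mitochondrial chaperones and proteases, 1 rose and 4 fell: Grpel2 was higher by 0.92 ± 0.18, and Grpel1 (-0.67 ± 0.14), Trap1, the mitochondrial HSP90 (-0.50 ± 0.11), and Clpp (-0.40 ± 0.13) were among the lower ones. Of 14 subunits of the cytosolic chaperonin and prefoldin, 8 rose and 2 fell, with Cct6a (0.66 ± 0.13), Pfdn4 (0.63 ± 0.21) and Cct8 (0.54 ± 0.10) higher and Pfdn6 (-0.37 ± 0.11) and Pfdn5 (-0.25 ± 0.09) lower. Of 18 endoplasmic reticulum stress genes, 10 rose and 0 fell, such as Sdf2l1 (1.79 ± 0.38), Edem1 (1.36 ± 0.25) and the transcription factor gene Atf4 (1.36 ± 0.25). Hscb, a J-domain gene of mitochondrial iron-sulphur cluster assembly, fell (-1.14 ± 0.18), and Gak, of clathrin uncoating, rose by 0.32 ± 0.10. Of 20 immediate early genes, which respond within minutes to many stimuli, 18 rose and 0 fell, with a median of 2.41 and Fosl1, Fos and Atf3 highest at 5.26 ± 0.62, 5.09 ± 0.75 and 4.49 ± 0.57. The summed log2 level of that list was 5.89 to 6.01 in WT and 7.12 to 7.84 in WT+MI, where WT+MI 3 was lowest, as for Hspa1a.

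The transgene alone was measured by TG against WT. No member passed, whereas 2.5% of all genes tested did (1.36% higher and 1.14% lower). In this comparison 1 of 65 members had an unadjusted limma p under 0.05, and the lowest adjusted p was 0.188, for Dnaja4 (-0.37 ± 0.13). The groups did not overlap for 17 members (26.2%), against 34.4% of all genes. Hspa1a and Hspa1b were higher on all 3 TG arrays than on any WT array, by 0.86 ± 0.92 (limma adjusted p = 0.669) and 0.78 ± 0.82 (adjusted p = 0.666). Those standard errors are shared with the widely spread infarcted groups. In the fit of single probes, 1 of 126 member probes passed, a second Hspa4 probe that was higher by 1.17 ± 0.22 (adjusted p = 0.025), while the probe used for Hspa4 differed by -0.12 ± 0.10. Among the partner genes Fkbp5 was higher by 1.96 ± 0.38 and among the immediate early genes 6 of 20 rose, with Fos (4.34 ± 0.75), Nr4a1 (2.67 ± 0.38) and Dusp1 (2.06 ± 0.23) highest. The summed immediate early level was 7.05 to 7.55 in TG, above all WT arrays, and its part in the member values was not tested.

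Infarction in transgenic hearts was measured by TG+MI against TG. Its arrays are not those of the comparison in wild type. The standard errors are shared, however, since the fit pools the spread over all 12 arrays, so the calls of the 2 comparisons are not independent. The inducible chaperones rose here too: Hspa1b by 3.76 ± 0.82 (limma adjusted p = 0.0207), Hspa1a by 3.45 ± 0.92 (0.0435), Hsp90aa1 by 0.95 ± 0.23 (0.0282) and Dnajb1 by 0.80 ± 0.21 (0.0439). Hspb1 rose by 0.67 ± 0.19, Dnaja1 by 0.65 ± 0.18, Hspa4 by 0.59 ± 0.10 and Hspb2 by 0.42 ± 0.11. Hspa12a fell, with a difference of -1.14 ± 0.29. In all 8 members were higher and 1 lower, which is 13.8% against 8.82% of all genes tested, and the groups did not overlap for 20 members (30.8%), against 30.3% of all genes. By direction, 12.3% of members were higher against 5.07% of all genes and 1.54% lower against 3.75%. All 8 higher members were among the 16 higher ones of wild type (50% of that list), and Hspa12a was among its 16 lower ones (6.25%). How often all genes called here were also called in wild type was not counted, so this overlap is no result about the members.

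The count of members called in transgenic hearts moved with the arrays used, and so did the count of all genes. TG 3 was the only TG array on the slide of the TG+MI arrays, and TG the only group on both slides. With slide as a block the comparison is therefore TG+MI against TG 3 alone. There 0 of the 9 passed, where 122 of all 19761 genes did against 1743 without the block. The differences were similar in size, such as 4.21 for Hspa1b (limma adjusted p = 0.182) and 1.26 for Hsp90aa1 (adjusted p = 0.126). With 1 TG array on that slide, the lost calls are no result about the members. Leaving out 1 array at a time, the count of members called ran from 1, without TG replicate 1, to 10. The count of all genes was 746 without that array. Without any single WT array, which this comparison does not use, 3 members passed. The widest spread within TG+MI was again that of Hspa1a, 3.54 ± 1.38 (SD, n = 3), and TG+MI 3, its highest array, also had the highest immediate early sum of its group, 7.66 against 6.82 and 7.0.

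In transgenic hearts 0 of 24 type C genes were called, beside 8.82% of all genes tested. Their median was 0.01, against 0.03 over all genes. With so few genes this count is no result about the class. The medians of the classes were 0.16 for HSP70 and HSP110, 0.21 for HSP90, 0.10 for the genes with an Hspb symbol and -0.15 for the chaperonin. Among partner genes, Bag2, an exchange factor of HSP70, rose by 0.58 ± 0.11, Ptges3 by 0.38 ± 0.10 and Grpel2 by 0.87 ± 0.18. Of 14 chaperonin and prefoldin subunits 4 rose, of which Pfdn2 (0.52 ± 0.10), Cct2 (0.50 ± 0.10) and Cct6a (0.50 ± 0.13) were highest. Of 18 endoplasmic reticulum stress genes 3 rose, Atf4 by 1.16 ± 0.25, Xbp1 by 0.98 ± 0.17 and Atf6 by 0.59 ± 0.11. TG+MI 3 stood apart in that list: Creld2 was 4.19, 4.26 and 2.37 in TG+MI against 2.87 to 2.98 in TG, and Manf was 2.71, 2.70 and 1.04 against 1.17 to 1.55. Neither gene passed in TG+MI against TG (adjusted p = 0.328 and 0.213). Of 20 immediate early genes 8 rose, led by Fosl1 (4.02 ± 0.62), Ier3 (2.32 ± 0.24) and Atf3 (2.31 ± 0.57), and Dusp1 fell (-1.04 ± 0.23).

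**Figure D5:**
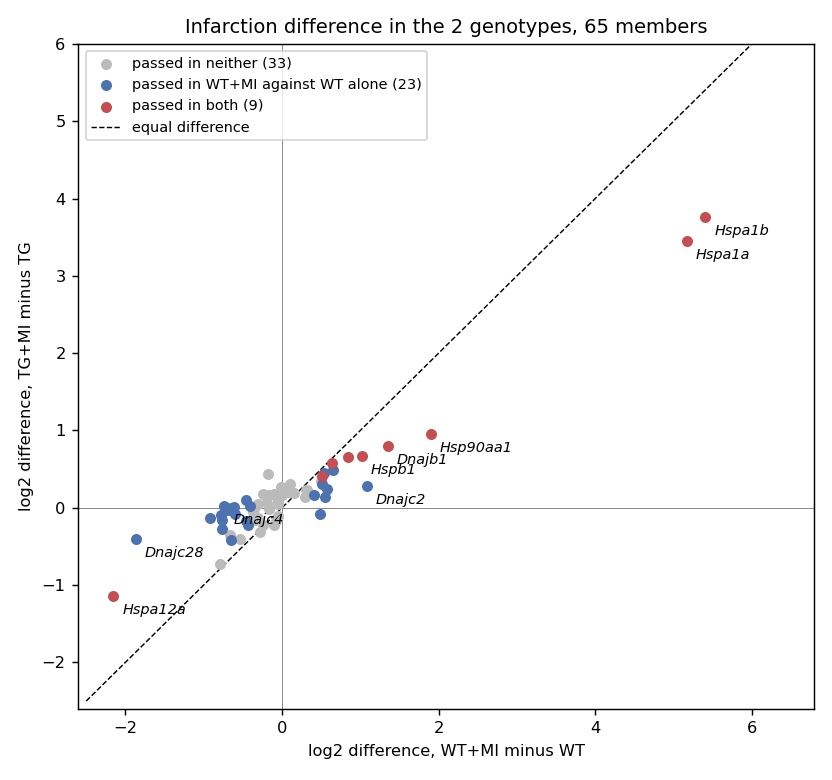
Log2 infarction difference of the 65 tested members in wild-type hearts (horizontal) and in transgenic hearts (vertical), with the line of equal difference dashed; named are members past a difference of 1 in wild type that passed in both genotypes and the 3 that passed in the test of the difference between them. Hspa1a and Hspa1b lie below the line (5.17 and 5.41 against 3.45 and 3.76), and Dnajc28 lies above it at the left (-1.87 against -0.41).

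Whether the infarction response differed between genotypes was tested by the interaction, the response in transgenic minus that in wild-type hearts. In this test 3 of 65 members passed, 4.62% against 7.93% of all genes tested; 2 were higher and 1 lower, where 4.91% and 3.02% of all genes were. The Dnajc2 level was -0.46, -0.38 and -0.49 in WT, 0.64, 0.61 and 0.66 in WT+MI, -0.44, -0.35 and -0.45 in TG and -0.03, 0.07 and -0.43 in TG+MI. Its level in WT+MI was above every other array, and the interaction was -0.80 ± 0.18 (limma adjusted p = 0.0376). Dnajc28 had an interaction of 1.46 ± 0.39 (adjusted p = 0.049) and Dnajc4 of 0.76 ± 0.20 (adjusted p = 0.049). The Dnajc4 level was 3.09, 2.95 and 3.06 in WT, 2.0, 2.50 and 2.38 in WT+MI, 2.60, 2.66 and 2.92 in TG and 2.79, 2.61 and 2.84 in TG+MI. It was lowest in WT+MI, while TG and TG+MI overlapped. With slide as a block none of the 3 passed, where only 3 of all 19761 genes did against 1567 without it. The interaction was then -0.76 for Dnajc2 (limma adjusted p = 0.233), 1.20 for Dnajc28 (0.278) and 0.57 for Dnajc4 (0.303). Under that block the transgenic response is TG+MI against TG 3 alone, so the lost calls are no result about the members.

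The steeply induced members were picked by their rise in wild-type hearts, which enters the interaction with a minus sign. That choice favours a negative value in advance. For these members the interaction was negative and did not pass. It was -1.71 ± 1.30 for Hspa1a (limma adjusted p = 0.382), -1.64 ± 1.16 for Hspa1b (0.348), -0.94 ± 0.32 for Hsp90aa1 (0.0823), -0.56 ± 0.30 for Dnajb1 and -0.35 ± 0.26 for Hspb1. Without WT+MI 3, its low array, Hspa1b had an interaction of -2.73 (limma adjusted p = 0.0463). That array was left out here for its low Hspa1b level, which favours a more negative value and a smaller p in advance. The value is therefore no test of a difference between genotypes. The median interaction was 0.16 over the members and 0.14 over all genes tested, and by class it was 0.22 for DnaJ C, 0.48 for DnaJ A and -0.24 for HSP90. Among partner genes 1 of 13 exchange factors passed, Bag6 (0.69 ± 0.18), and 2 of 9 mitochondrial chaperones, Grpel1 (0.75 ± 0.21) and Trap1 (0.57 ± 0.16). Of the immediate early genes 7 of 20 were lower, with Fos (-4.77 ± 1.06), Nr4a1 (-2.93 ± 0.53) and Btg2 (-2.29 ± 0.31) lowest.

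The infarcted hearts of both genotypes were compared directly by TG+MI against WT+MI. Here 5 members were higher in TG+MI and 2 lower, 10.8% against 10.5% of all genes tested (7.69% against 5.97% higher and 3.08% against 4.5% lower), and the groups did not overlap for 26 members (40.0%), against 33.2%. Dnajc28 was higher by 1.01 ± 0.28, Dnajc12 by 0.72 ± 0.18, Hspa4l by 0.65 ± 0.18, Dnajc18 by 0.51 ± 0.12 and Dnajc30 by 0.49 ± 0.13. Hsp90aa1 was lower (-0.87 ± 0.23, limma adjusted p = 0.0411), as was Dnajc2 (-0.77 ± 0.12, adjusted p = 0.0224). The Dnajc12 level was 0.22, 0.68 and 0.94 in WT+MI and 1.25, 1.12 and 1.64 in TG+MI, and that of Hspa4l was 1.27, 1.34 and 1.53 against 1.96, 1.65 and 2.46. In both genes all TG+MI arrays lay above all WT+MI arrays. Hspa1a differed by -0.86 ± 0.92 (adjusted p = 0.542) and Hspa1b by -0.87 ± 0.82 (0.487), with overlapping groups.

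Since TG+MI and WT+MI lie on separate slides, no value within a slide exists for this comparison, and with slide as a block 0 of the 7 members and 0 of all 19761 genes passed. Beside these values, the neutrophil sum was lower in TG+MI than in WT+MI on every array, and its part in the member differences was not tested. Without WT+MI 3 the Hspa1b difference was -1.96 (limma adjusted p = 0.0452). Leaving out the lowest WT+MI array favours a lower value in advance, so this is no test either. Among partner genes Hyou1 was lower (-1.04 ± 0.21), and Bag6 (0.51 ± 0.13), Aarsd1 (0.47 ± 0.12) and Trap1 (0.41 ± 0.11) were higher. No endoplasmic reticulum stress gene and no immediate early gene passed, with list medians of -0.28 and -0.54 against 0.08 over all genes tested.

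Across the 12 arrays, which span the 4 groups and share the infarction, the members whose levels ran most like Hspa1a were Hspa1b (Pearson r = 0.996), Dnajb1 (0.941), Hspb1 (0.938) and Hsp90aa1 (0.936). Among the genes that are not members, the highest r was found for Inhbb, a subunit of inhibin and activin (0.989), Hbegf, an EGF-like growth factor (0.982), Zfp352 (0.978), Acer3, a ceramidase (0.977), and Sphk1, a sphingosine kinase (0.977). These correlations describe 12 arrays of 4 groups and have no test.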

How the data were processed

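Agilent Feature Extraction 12.0.3.1 read the spots and subtracted background, per the file headers, and the authors deposited its processed signal, a linear intensity not scaled between arrays. The authors also deposited log2 values of these arrays. Each column had a Spearman correlation of at least 0.999995 with its own array, and column medians were 4.23 to 4.24; how they were normalized is not stated in the labels. For limma, the submitters' processing notes give no version. Here log2 of the deposited intensity was set relative to the 75th percentile of the 59305 non-control spots of the array. Outlier spots were left out, spots of a probe were averaged, and the probe with the highest mean represented its gene. Symbols are those of the files; RefSeq gave the same symbol for 125 of 155 member probes and another for 0. A gene entered the tests if its probe exceeded background clearly on every array of a group; 63 members did so on all 12 arrays. All arrays entered a group-means model in limma 3.58.1 (lmFit and eBayes, R 4.3.3, with version 1.17.8 of the data.table package), tested on simulated data. Single probes were fitted likewise. Between 47.0% and 55.2% of probes per array were well above background and 0 spots were saturated; the number of arrays limits the precision. Alternatives changed the slide term, normalization, background correction, filter, probe rule and arrays used. Members, partner lists and tests were chosen with earlier results of these data known. Named are the main members of each class, the 5 members with the largest called difference per direction, members called in the interaction, members with opposed probes, up to the 3 largest calls of a partner list per direction, and the 5 other genes most like Hspa1a.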

Additional observations from a re-analysis of the deposited data

Results flagged for a closer look

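The infarction response differed between genotypes, by the test of the difference itself, for 3 of 65 members, which is 4.62% against 7.93% of all genes tested. The response in transgenic hearts minus that in wild-type hearts was -0.80 ± 0.18 on the log2 scale for Dnajc2 (limma adjusted p = 0.0376), which rose in wild-type hearts by 1.08. It was 1.46 ± 0.39 for Dnajc28 (adjusted p = 0.049), with a wild-type difference of -1.87. It was 0.76 ± 0.20 for Dnajc4 (adjusted p = 0.049), with a wild-type difference of -0.74. All TG+MI arrays lay on another slide than the WT+MI arrays, and slide and genotype cannot be told apart in the infarcted hearts. With slide as a block none of the 3 passed (limma adjusted p = 0.233 for Dnajc2, 0.278 for Dnajc28 and 0.303 for Dnajc4). Only 3 of all genes tested passed there, and TG 3 was the only TG array on the slide of TG+MI. Of the 3 calls, 0 held under every alternative setting, for which that block left little room.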

How the results depend on the processing

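The count in WT+MI against WT (32) ran from 26 to 35 over 10 other settings and from 28 to 35 with 1 array left out. The calls lost there were those of Dnajb5, Dnaja2, Dnajc30, Hspa13, Hspa1l and Hsp90b1 in several settings, of Hspa5 with normexp and quantile normalization together (called normexp below), and of Dnaja1, Dnajb11, Dnajc18, Hsp90aa1 and Hspa4l with the mean of probes. In TG against WT (0), normexp with quantile normalization gave 1, Hspb7 at 0.37 (adjusted p = 0.0319) against -0.10 as reported, and every fit with 1 array left out gave 0. In TG+MI against TG (9, and 1743 of all genes), the count was 0 with slide as a block (122 of all genes). That block and slide 2 alone give the same differences, since TG 3 is the only TG array on that slide. They are not separate checks. Slide 2 alone has 1 TG array, assumed to vary like TG+MI, and says nothing of the members. The count was 2 without a filter (931 of all genes), 5 with the mean of probes (1453) and 2 from the compared groups alone (652). In TG+MI against WT+MI (7, and 2069 of all genes), it was 0 with the slide block (0 of all genes) and 19 with normexp (2896). It was 11 in the authors' deposited table (2689) and 0 without a filter (17). With the mean of probes it was 3 (1615), and from the compared groups alone 0 (1 of all genes). In the interaction (3, and 1567 of all genes), it was 0 with the slide block (3 of all genes) and 5 with normexp (1930). It was 5 in the authors' table (1750) and 0 without a filter (52). With probes above background on all 12 arrays it was 6 (1775), and with the mean of probes 1 (1207). The split of TG+MI against TG was 8 higher and 1 lower as reported, 7 and 2 with quantile normalization, 6 and 3 with normexp and 6 and 2 in the authors' table. That of the interaction was 2 and 1 as reported and 1 and 1 with quantile normalization. No call in the last 3 comparisons held under every setting. In TG+MI against WT+MI this was fixed in advance, since 0 of all genes passed with the slide block. In the interaction that block left 3 of all genes, and in TG+MI against TG slide 2 alone had 1 TG array. The lack of calls that held is therefore no result about the members. Fits that pool the spread and leave out 1 array gave 1 to 10 in TG+MI against TG, 0 to 12 in TG+MI against WT+MI and 0 to 7 in the interaction. In the same fits and order, all genes called ran from 679 to 2280, from 0 to 3432 and from 51 to 2681. The count of members in TG+MI against TG was 1 without TG 1 or TG+MI 2, 2 without TG 3 and 3 without TG 2, WT+MI 2 or any WT array. In TG+MI against WT+MI it was 0 without WT+MI 1, TG+MI 1 or TG+MI 3, 1 without WT+MI 2 or any WT array, 2 without TG 2 or TG 3, 4 without TG 1, 10 without WT+MI 3 and 12 without TG+MI 2. In the interaction it was 7 without WT+MI 3, 6 without TG+MI 2, 2 without TG 3, 1 without TG+MI 3 and 0 without any other array. With the mean of probes Dnajb6 was higher in WT+MI against WT by 0.29 (adjusted p = 0.0458), against -0.11 as reported. The cause of these shifts was not tested. The replicate numbers share only a number: same-numbered arrays of different groups had correlations of deviations from -0.26 to 0.12. With the replicate block, counts were 31, 0, 4, 5 and 1 in the order above. Dim probes limit Dnajb3 and Hspb9, which were above background on 1 of 3 WT+MI arrays.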
